A study of Mus musculus with 6 samples.

Results

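Hypoxia-inducible factor (HIF) target genes that do not encode glycolytic enzymes, with some genes of the HIF system itself, were described here in melanoma grafts of the mouse tongue. The members were 34 genes taken from a written list of hypoxia response genes, each matched by symbol to 1 of the 55487 gene IDs counted. The rule used no measured value, but the list was drawn up with earlier results of these data known. The grafts were B16F10, a pigmented mouse melanoma line, grown under the tongue mucosa of wild-type, immune-competent C57BL/6J mice, whose age the labels did not give. Cervical lymph nodes had been injected 6 weeks before grafting, with AAV2/retro-Trpv1-mCherry in some mice and in others with AAV2/retro-Trpv1-hM4D(Gi)-mCherry. These vectors travel backwards along axons, and Trpv1 in their names marks nociceptive neurons as the cells meant to carry a red fluorescent protein alone or with hM4D(Gi), an engineered inhibitory receptor. Deschloroclozapine, the drug that activates it, was given 2 times per day for 12 days. Whole grafts, trimmed of tissue that was not tumor, were sequenced as 3 control and 3 inhibition libraries. The labels called the controls vehicle-treated whereas the design text gave this drug to the mice without setting the controls apart, so whether the controls lacked the drug or the receptor is not settled by them. All 6 grafts shared 1 cell line, and the RNA held tumor and host cells together.

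In oxygenated cells, prolyl hydroxylases of the EGLN family mark the alpha subunits of HIF, and the VHL protein then directs those subunits to destruction. When oxygen is short the alpha subunits persist, pair with ARNT and bind a short core sequence in target genes. The targets shift metabolism away from respiration, remove damaged mitochondria, export acid, modify collagen and restrain growth, and several of them (Egln1, Egln3) feed back on HIF itself. Solid tumors, B16F10 grafts among them, commonly contain poorly oxygenated regions in which these genes are expressed.

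The HIF core was sought as ACGTG or GCGTG on both strands in windows from 250 bases before to 50 bases after each annotated start, taken from RefSeq on GRCm38.p6. Of the 34 members 23 had such a window, and 21 of these (91.3%) held at least 1 core, against 46.7% of the 27025 genes with a window (43.8% of all 32851 windows). Vhl and Car12 were the members with a window and no core in it. The members were listed as hypoxia response genes, so this share describes the list. Cores were as common among the members with the clearest differences (12 of the 13 with a window that were lower at an unadjusted p under 0.05) as among the others (9 of 10). The stretches printed next are those before the start that no annotated exon covered, for 4 members whose grafts separated by group (Bnip3, Ak4, Ankrd37 and Ddit4) and for 2 whose grafts overlapped (P4ha1 and Egln3). Capitals mark the core, as CACGT or CACGC where it lies on the other strand. CACGTG reads the same on both strands and was matched on each, and in Ankrd37 a core on each strand overlap.
Bnip3 (chr7:138909520-138909756, minus strand): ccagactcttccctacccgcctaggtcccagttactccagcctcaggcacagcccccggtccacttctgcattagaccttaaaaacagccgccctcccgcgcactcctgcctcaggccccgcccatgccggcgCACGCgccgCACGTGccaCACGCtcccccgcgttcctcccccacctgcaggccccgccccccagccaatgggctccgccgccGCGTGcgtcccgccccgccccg
Ak4 (chr4:101419039-101419276, plus strand): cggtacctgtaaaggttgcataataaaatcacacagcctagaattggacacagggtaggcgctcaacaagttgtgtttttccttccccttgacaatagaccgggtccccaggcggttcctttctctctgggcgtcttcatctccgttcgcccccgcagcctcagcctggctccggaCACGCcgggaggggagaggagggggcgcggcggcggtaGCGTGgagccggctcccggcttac
Ankrd37 (chr8:45999868-46000100, minus strand): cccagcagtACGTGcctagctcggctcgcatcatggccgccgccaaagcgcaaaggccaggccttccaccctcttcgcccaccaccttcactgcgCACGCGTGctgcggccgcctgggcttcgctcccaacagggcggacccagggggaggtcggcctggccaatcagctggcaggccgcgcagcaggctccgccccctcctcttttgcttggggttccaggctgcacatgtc
Ddit4 (chr10:59951835-59952020, minus strand): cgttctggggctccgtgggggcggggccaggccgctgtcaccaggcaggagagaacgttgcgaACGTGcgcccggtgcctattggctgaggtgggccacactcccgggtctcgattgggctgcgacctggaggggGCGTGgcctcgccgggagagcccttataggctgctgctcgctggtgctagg
P4ha1 (chr10:59323046-59323295, plus strand): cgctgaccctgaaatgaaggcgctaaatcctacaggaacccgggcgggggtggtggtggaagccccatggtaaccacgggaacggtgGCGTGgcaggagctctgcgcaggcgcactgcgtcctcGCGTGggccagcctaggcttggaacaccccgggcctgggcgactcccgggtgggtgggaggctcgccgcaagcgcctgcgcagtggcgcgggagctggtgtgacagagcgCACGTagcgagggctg
Egln3 (chr12:54203875-54204124, minus strand): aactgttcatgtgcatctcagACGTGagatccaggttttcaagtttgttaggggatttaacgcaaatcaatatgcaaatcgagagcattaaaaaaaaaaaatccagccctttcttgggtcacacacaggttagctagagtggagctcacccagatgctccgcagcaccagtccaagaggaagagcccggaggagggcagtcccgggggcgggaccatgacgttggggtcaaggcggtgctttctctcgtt
Bnip3 held 5 matches in this stretch, the most of these 6, and Egln3 held 1. Ak4 has several annotated starts, and the stretch printed belongs to only the first. Another window of Ak4 (chr4:101419453-101419752) held ACGTG at -214 and -213, on opposite strands, and GCGTG at 45. A match is a run of letters, and none of the libraries measured binding.

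The libraries held between 14477277 and 20972494 counts. Levels are given as CPM, counts relative to the library total, after scaling by TMM factors, which correct for differences in library composition, and fold changes as the log2 of inhibition over control with a standard error (SE). The melanocyte genes that define the graft were present in every library, and 10 of 10 were tested. Their summed level was 23696 to 31563 CPM in controls, lowest in control 1, and 30626 to 35746 CPM under inhibition. None of them had groups that separated, but 9 of the 10 had a positive fold change, against 51.0% of all tested genes. The median log2 fold change of the 10 was 0.04. Of the 34 members 33 passed the filter on low counts. Stc2, a secreted glycoprotein, did not, with 0.0603, 0.325 and 0.145 CPM in controls 1 to 3 and 0.280, 0.512 and 0.381 CPM in inhibition grafts 1 to 3. Tested members ranged in control mean from 3.49 CPM (Ankrd37) to 337 CPM (Hif1a). Per kilobase of exon the control levels ran from 1.52 RPKM for Car12 to 127 RPKM for Fam162a.

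The comparison asked how these genes differed in the graft when nociceptive nerves of the cervical nodes had been silenced. Most members stood lower under inhibition, and none passed the test over all genes. Of the 33 tested members 27 had a negative log2 fold change, against 49.0% of all tested genes, and 6 a positive one, against 51.0%. Their median was -0.27 (quartiles -0.47 to -0.11), beside a median of 0.00485 over the 15666 genes tested. At an adjusted p under 0.05 edgeR called 0 members lower and 0 higher, with 0.00638% of all tested genes called lower and 0.0319% higher. Before adjustment, 16 members were lower at p under 0.05, where the background was 7.00% of all tested genes, and 1 higher, where it was 8.36%. In 13 members every inhibition graft lay below every control, against 11.0% of all tested genes, and in 2 members every inhibition graft lay above, against 10.2%. The smallest adjusted p among the members was 0.122.

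Other tests called different numbers of the same list. DESeq2 called 8 members lower (Vhl, Car9, Bnip3, Bnip3l, Higd1a, Ak4, Kdm3a and Ddit4) and 0 higher, where it called 1.17% of all tested genes lower and 2.20% higher. Without the filter on low counts edgeR called 13 members lower and 1, Lox, higher, and 1.52% of 28841 genes lower and 2.59% higher. The limma-voom test called 0, and its unadjusted p was under 0.05 for 14 members on the lower side (background 6.66%) and for 1 on the higher side (background 8.21%). The labels did not say that the grafts came from separate animals, so each p measures the spread between these libraries, which may be technical.

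**Figure D1:**
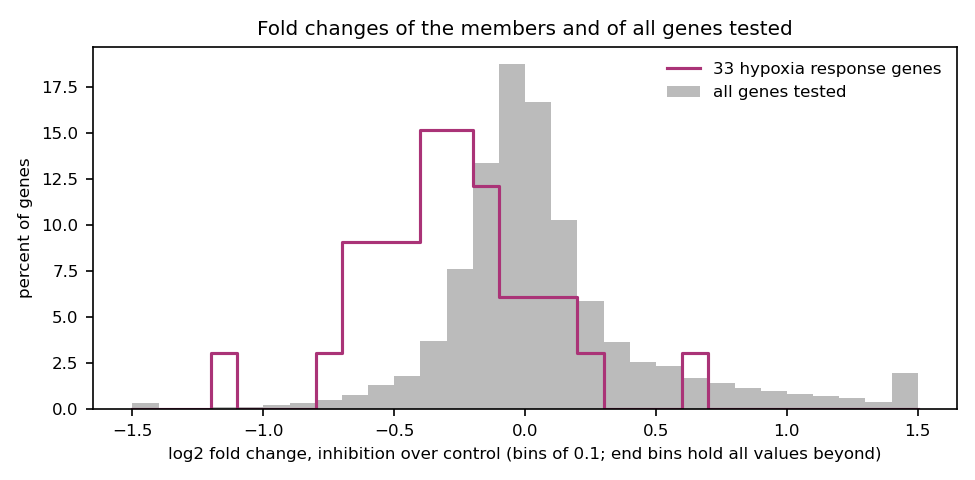
Distribution of log2 fold changes (x axis, inhibition over control, bins of 0.1) as a percent of genes (y axis) for all 15666 genes tested (grey bars) and for the 33 tested hypoxia response genes (line). The members centre at a median of -0.27 and the whole table at 0.00485, with Ankrd37 at the low end of the members and Lox at the high end.

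The difference was uneven across the grafts. Inhibition graft 1 had the lowest value of all 6 libraries in 22 of the 33 tested members, where it was the lowest in 18.5% of all tested genes. The mean log2 level of the members, less the control mean, lay at 0.02, -0.00266 and -0.01 in controls 1 to 3 and at -0.52, -0.18 and -0.17 in inhibition grafts 1 to 3. The 3 controls were thus close to one another, the 3 inhibition grafts lay below all of them, and graft 1 lay farthest below. Without inhibition graft 1 the median fold change was -0.19 and 11 members were lower at an unadjusted p under 0.05 (background 4.04%). Control 1 also stood apart: it held the highest value in 14 of 33 members and the lowest in 27.0% of all tested genes. Its counts differed from those of controls 2 and 3 by a chi-square per degree of freedom of 17.5 and 16.4, against 9.92 between those 2. Inhibition graft 3 lay apart from its group to a like degree, at 17.9 from graft 2 and 13 from graft 1, against 7.65 between grafts 1 and 2. Between the groups, control 1 lay at 39.2, 37.8 and 25.1 from inhibition grafts 1 to 3. Control 2 lay at 14.6, 12.7 and 10.2 from them, and control 3 at 23.8, 25 and 13.7. Some pairs across the groups were thus closer than some pairs within them. Without control 1 the median was -0.29 and 11 members were again lower at an unadjusted p under 0.05 (background 4.85%). The coefficient of variation between grafts was larger under inhibition in 24 of 33 members, and in 42.6% of all tested genes.

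**Figure D2:**
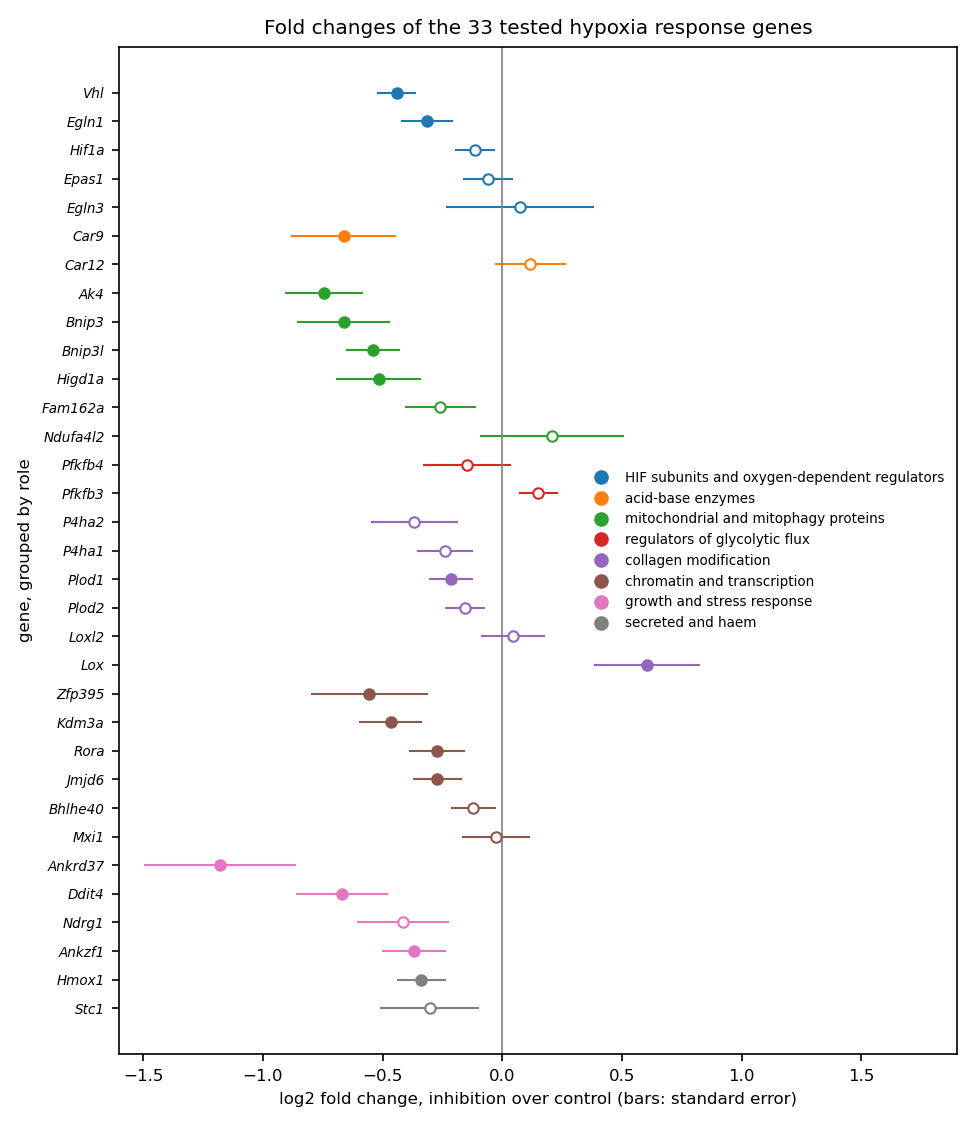
Log2 fold change (x axis, inhibition over control) with its standard error (bars) for each of the 33 tested members (y axis), coloured by role; filled points had an unadjusted p under 0.05. Filled points lie left of 0 in 16 genes and right of 0 in 1, Lox.

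Among the HIF subunits and the proteins that control them, the message of the alpha subunits differed little and that of Vhl differed most. Hif1a, the alpha subunit induced in most hypoxic cells, stood at 347, 314 and 348 CPM in controls 1 to 3 and at 329, 282 and 322 CPM in inhibition grafts 1 to 3. The groups overlapped, with a log2 fold change of -0.11 (SE 0.08, edgeR adjusted p = 0.525). Epas1, which encodes the HIF-2 alpha subunit prominent in endothelium, was at 46.7, 37.8 and 45.9 CPM in controls and 42.9, 38.5 and 43.8 CPM under inhibition (-0.06, SE 0.10, adjusted p = 0.806). Its groups overlapped as well. The log2 ratio of Epas1 to Hif1a within each library averaged -2.96 ± 0.09 in controls and -2.90 ± 0.04 under inhibition (SD, n = 3 per group; exact two-sided permutation p = 0.400, 0.533 adjusted over 4 ratios). With 3 libraries against 3 the smallest p this test can give is 0.1.

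Vhl (ENSMUSG00000033933, chr6:113623959-113631633 on GRCm38), the substrate receptor of the ligase that removes hydroxylated HIF alpha, stood at 64.5, 61.1 and 58.9 CPM in controls and at 44.1, 48.8 and 42.9 CPM under inhibition. No inhibition graft reached any control, and the replicates of each group lay close together. The log2 fold change was -0.44 (SE 0.08), and its unadjusted p of 0.000420 was the smallest among the members, with an adjusted p = 0.122 in edgeR and 0.00377 in DESeq2. A processed copy of the gene, Vhl-ps1, was counted at 0 CPM in all 6 libraries.

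Egln1, the main HIF prolyl hydroxylase, was at 135, 134 and 145 CPM in controls and at 91.7, 120 and 121 CPM under inhibition. The groups separated, with graft 1 lowest (log2 fold change -0.31, SE 0.11, adjusted p = 0.236). Egln3, a second hydroxylase that hypoxia induces strongly, did not follow: it was at 10.1, 13.1 and 15.3 CPM in controls and at 8.90, 11.3 and 20.1 CPM under inhibition (0.07, SE 0.31, adjusted p = 0.928). Inhibition graft 3 held the highest value and graft 1 the lowest. The log2 ratio of Egln3 to Egln1 was -3.45 ± 0.26 in controls and -3.12 ± 0.46 under inhibition (SD, n = 3 per group; exact permutation p = 0.600, 0.600 adjusted over 4 ratios).

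**Figure D3:**
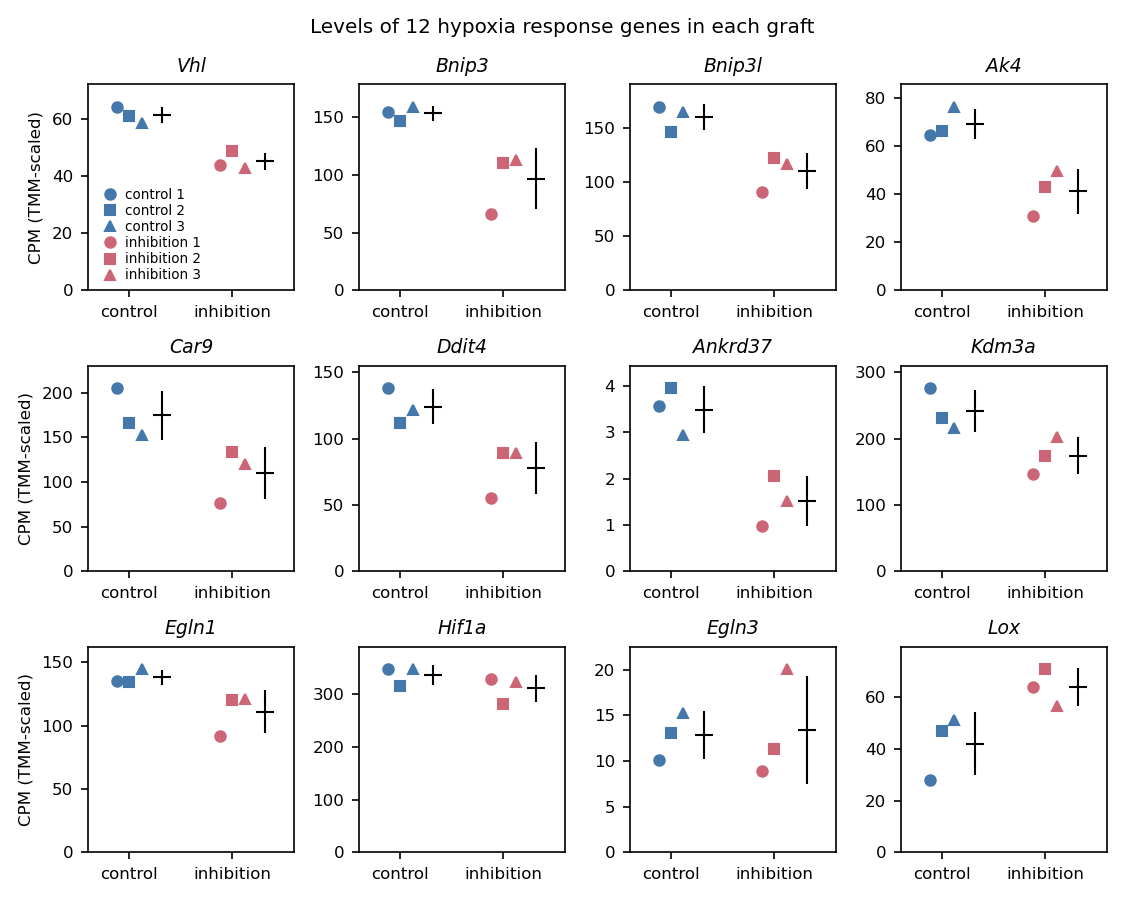
CPM (y axis, from 0) of 12 members in each graft (points; symbols give the replicate number), with the mean and SD of each group (black). In Vhl, Bnip3, Bnip3l, Ak4, Car9, Ddit4, Ankrd37, Kdm3a and Egln1 the inhibition grafts lie below the controls, in Lox they lie above, and in Hif1a and Egln3 the groups overlap.

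Genes of mitochondria and of mitophagy, the removal of mitochondria by autophagy, separated by group in 4 of 6 members (background 11.0%), each of them lower at an unadjusted p under 0.05 (background 7.00%). The median log2 fold change of the 6 was -0.53. Ak4 (ENSMUSG00000028527, chr4:101419277-101466995), an adenylate kinase of the mitochondrial matrix, stood at 64.7, 66.4 and 76.4 CPM in controls and at 30.9, 43.1 and 49.5 CPM under inhibition (-0.74, SE 0.16, adjusted p = 0.166). Every inhibition graft was below the lowest control. Without inhibition graft 3, edgeR called Ak4 alone of the members (-0.91, adjusted p = 0.0312), where 0.296% of all genes tested were called lower.

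The mitophagy receptors Bnip3 and Bnip3l sit in the outer mitochondrial membrane and recruit the autophagy machinery. Bnip3 (ENSMUSG00000078566, chr7:138890836-138909519) was at 154, 146 and 159 CPM in controls and at 66.4, 110 and 113 CPM under inhibition (-0.66, SE 0.19, adjusted p = 0.223). Bnip3l (ENSMUSG00000022051, chr14:66985239-67008877) was at 170, 147 and 165 CPM in controls and at 91.4, 123 and 116 CPM under inhibition (-0.54, SE 0.11, adjusted p = 0.160). Both receptors separated by group, with graft 1 lowest. A copy, Bnip3l-ps, was counted at 7.22 to 10.8 CPM in controls and 6.17 to 8.92 CPM under inhibition, so a small part of the reads of Bnip3l may have been assigned elsewhere. The log2 ratio of Bnip3 to Bnip3l averaged -0.06 ± 0.07 in controls and -0.22 ± 0.22 under inhibition (SD, n = 3 per group; exact permutation p = 0.300, 0.533 adjusted over 4 ratios).

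Higd1a, a small protein of the respiratory chain that hypoxia induces, was at 112, 96.3 and 103 CPM in controls and at 52.9, 89.6 and 74.3 CPM under inhibition (log2 fold change -0.52, SE 0.18, adjusted p = 0.257). Its groups separated. Fam162a, a mitochondrial protein linked to hypoxic cell death, averaged 108 ± 12.1 CPM in controls and 90.0 ± 17.8 CPM under inhibition (SD, n = 3 per group), with groups that overlapped (-0.26, adjusted p = 0.436). Ndufa4l2, which lowers respiratory chain activity in hypoxic cells, went the other way at a low level, with means of 4.76 ± 1.52 and 5.49 ± 1.76 CPM (0.21, adjusted p = 0.767). The exons of Ndufa4l2 overlap those of Shmt2 on the opposite strand, a gene at 265 CPM in controls, and the strand setting of the counting is not given in the sources used here, so its value is uncertain.

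The acid-base enzymes split. Car9 (ENSMUSG00000028463, chr4:43506966-43513729), the membrane carbonic anhydrase widely used as a hypoxia marker, was at 206, 165 and 153 CPM in controls and at 76.9, 133 and 120 CPM under inhibition (log2 fold change -0.66, SE 0.22, adjusted p = 0.252). The groups separated, with inhibition graft 1 the lowest. Car12, a related membrane carbonic anhydrase, averaged 11.5 ± 1.53 CPM in controls and 12.5 ± 1.05 CPM under inhibition (SD, n = 3 per group), with overlapping groups (0.12, adjusted p = 0.732).

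All 4 genes of growth restraint and stress response had negative fold changes (background 49.0%), with a median of -0.54. Of the 4, 3 were lower at an unadjusted p under 0.05 (background 7.00%). Ddit4 (ENSMUSG00000020108, chr10:59949669-59951834), which restrains the growth kinase mTORC1, was at 139, 112 and 122 CPM in controls and at 55.0, 89.5 and 89.1 CPM under inhibition (log2 fold change -0.67, SE 0.19, adjusted p = 0.222). Ankrd37 (ENSMUSG00000050914, chr8:45996902-46005707), an ankyrin repeat protein, had the largest fold of the members, from 3.56, 3.97 and 2.95 CPM in controls to 0.981, 2.05 and 1.52 CPM under inhibition (-1.18, SE 0.32, adjusted p = 0.186). Both genes separated by group. The exons of Ankrd37 overlap those of Ufsp2 on the opposite strand (51.7 CPM in controls, 48.2 CPM under inhibition), so its value is uncertain. Ankzf1, which releases stalled chains from ribosomes, was at 22.6, 23.9 and 21.4 CPM in controls and at 14.5, 17.7 and 20.1 CPM under inhibition (-0.37, SE 0.13, adjusted p = 0.250). Its groups separated too, and it overlaps Atg9a on the opposite strand (64.3 and 58.8 CPM). Ndrg1, a stress-induced growth suppressor, averaged 75.1 ± 14.7 CPM in controls and 56.2 ± 11.4 CPM under inhibition (SD, n = 3 per group; -0.41, adjusted p = 0.357), and its groups overlapped.

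Regulators of chromatin and transcription were negative in 6 of 6 (background 49.0%), with a median log2 fold change of -0.27. In 4 of them the level was lower at an unadjusted p under 0.05 (background 7.00%). Kdm3a, a histone H3 demethylase whose activity itself needs oxygen, stood at 277, 232 and 215 CPM in controls and at 147, 174 and 202 CPM under inhibition (-0.47, SE 0.13, adjusted p = 0.198). Jmjd6, another oxygen-dependent hydroxylase, was at 106, 98.6 and 107 CPM in controls and at 72.8, 90.4 and 95.1 CPM under inhibition (-0.27, SE 0.10, adjusted p = 0.261). These 2 genes separated by group. In the other 2 of smaller p the groups overlapped. Rora, a nuclear receptor, was at 43.4, 42.7 and 39.0 CPM in controls and at 31.5, 40.7 and 31.3 CPM under inhibition (-0.27, SE 0.12, adjusted p = 0.309). Zfp395, a zinc finger protein, was at 19.9, 13.1 and 11.5 CPM in controls and at 7.64, 9.99 and 12.4 CPM under inhibition (-0.56, SE 0.24, adjusted p = 0.323), so that control 1 held the highest value and the other controls lay near inhibition graft 3. Bhlhe40, a circadian and stress repressor, and Mxi1, an antagonist of Myc, had fold changes of -0.12 and -0.03 with overlapping groups (adjusted p = 0.557 and 0.943).

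Collagen-modifying enzymes held 4 members with negative fold changes (background 49.0%) and 2, Lox and Loxl2, with positive ones (background 51.0%). Prolyl 4-hydroxylases stabilise the collagen triple helix, lysyl hydroxylases prepare it for cross-links, and lysyl oxidases form the cross-links outside the cell. Plod1, a lysyl hydroxylase, was at 305, 239 and 267 CPM in controls and at 229, 241 and 230 CPM under inhibition (log2 fold change -0.21, SE 0.09, adjusted p = 0.317), the groups overlapping through control 2 and inhibition graft 2. Its relative Plod2 averaged 220 ± 19.4 and 197 ± 11.1 CPM (-0.16, adjusted p = 0.404). The prolyl 4-hydroxylase subunits averaged 138 ± 9.80 and 117 ± 19.1 CPM for P4ha1 (-0.24, adjusted p = 0.363) and 54.9 ± 1.82 and 42.5 ± 11.5 CPM for P4ha2 (-0.37, adjusted p = 0.378; SD, n = 3 per group), and in both the groups overlapped. Lox, the lysyl oxidase, stood instead at 28.1, 46.8 and 51.0 CPM in controls and at 64.0, 71.0 and 56.7 CPM under inhibition. All 3 inhibition grafts lay above the controls, and control 1 was the lowest (0.60, SE 0.22, adjusted p = 0.275). Without control 1 the fold change of Lox was 0.38. Loxl2, a related oxidase, had overlapping groups (0.04, adjusted p = 0.894).

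Col1a1, a main collagen substrate, stood higher in the inhibition grafts, and the ratio of P4ha1 to Col1a1 separated the groups. Col1a1 is also 1 of the 10 fibroblast markers, and all 10 had positive fold changes (background 51.0%). P4ha1 itself had a log2 fold change of -0.24. The part of fibroblast content in this ratio was not tested. Col1a1 was at 128, 156 and 173 CPM in controls and at 264, 228 and 199.7 CPM under inhibition (log2 fold change 0.60, SE 0.13, edgeR adjusted p = 0.166). The log2 ratio of P4ha1 to Col1a1 counts was -0.00751, -0.10 and -0.28 in controls 1 to 3 and -1.45, -0.76 and -0.73 in inhibition grafts 1 to 3. The difference of -0.85 had an exact two-sided permutation p = 0.1, the smallest possible here (0.400 adjusted over 4 ratios), so it did not pass.

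Of the bifunctional enzymes that set the level of the glycolytic activator fructose 2,6-bisphosphate, neither was lower at an unadjusted p under 0.05. Pfkfb3 was at 41.0, 42.1 and 41.9 CPM in controls and at 48.6, 42.9 and 47.3 CPM under inhibition (log2 fold change 0.15, SE 0.08, adjusted p = 0.403). All 3 inhibition grafts lay above the controls, by a small margin in graft 2. Pfkfb4 averaged 8.58 ± 0.775 and 7.74 ± 1.36 CPM with overlapping groups (SD, n = 3 per group; -0.15, adjusted p = 0.729).

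Hmox1, the haem oxygenase that degrades haem and also answers to oxidative stress, was at 226, 193 and 184 CPM in controls and at 156, 144 and 176 CPM under inhibition (log2 fold change -0.34, SE 0.10, adjusted p = 0.206). Its groups separated. Stc1, a secreted calcium-regulating glycoprotein, averaged 11.9 ± 1.77 CPM in controls and 9.58 ± 2.38 CPM under inhibition (SD, n = 3 per group), and its groups overlapped (-0.30, adjusted p = 0.498).

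Other genes of the pathway were described in 3 lists, and the lists were not tested against one another. Of 21 further HIF targets 20 were tested, 16 of them on the negative side (background 49.0%), and their median was -0.31. For these targets edgeR called 0, and DESeq2 called 5 of the 20 lower (background 1.17%). The unadjusted edgeR p was under 0.05 in 8 of the 20, all lower (background 7.00%), and in 7 (background 11.0%) every inhibition graft lay below the controls. Pdk1, a kinase that inhibits pyruvate dehydrogenase, averaged 153 ± 10.6 and 105 ± 18.8 CPM (-0.55, adjusted p = 0.166). Hilpda, a lipid droplet protein, averaged 46.2 ± 5.95 and 24.5 ± 7.88 CPM (-0.91, adjusted p = 0.186). The lactate exporter Slc16a3 and the glucose transporter Slc2a1 had fold changes of -0.54 and -0.44 (adjusted p = 0.186 and 0.196). Each of these 4 separated by group.

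The HIF machinery outside the members (Arnt, the other hydroxylases, the ligase subunits and the coactivators) had a median of -0.09 over 13 tested of 14. Of these 9 were negative (background 49.0%), and 0 were called by edgeR or DESeq2. The unadjusted edgeR p was under 0.05 in 1 of them, Eloc, which was lower (7.69%, near the background of 7.00%), and in 4 (30.8%, background 11.0%) the inhibition grafts lay below the controls. Eloc and Elob, the elongins that join VHL to its ligase, had fold changes of -0.21 and -0.16 (adjusted p = 0.314 and 0.327). Siah2, a ligase that removes prolyl hydroxylases, had -0.19 (0.347), and Cited2, which competes with HIF for coactivators, -0.43 (0.415). Glycolytic enzymes, 14 of 14 tested, had a median of -0.28, and edgeR called 0 while DESeq2 called 5 lower (35.7%, background 1.17%). In 11 that were lower (78.6%, background 7.00%), and in 0 that were higher, the unadjusted edgeR p was under 0.05.

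Some markers of host tissue separated by group and others overlapped. The 13 skeletal muscle markers, 13 of 13 tested, summed to 783 to 1794 CPM in controls and 2208 to 3848 CPM under inhibition, and the 10 fibroblast markers to 751 to 1117 and 1342 to 1733 CPM. The 10 endothelial markers summed to 164 to 282 CPM in controls and 312 to 354 CPM under inhibition. For the 6 pericyte and smooth muscle markers the sums were 131 to 150 CPM in controls and 190 to 220 CPM under inhibition. Neutrophil markers, 7 of 8 tested, summed to 32.5 to 89.4 and 6.30 to 26.0 CPM, and Ly6g was at 0 in the inhibition grafts. Sums overlapped for squamous epithelium (1293 to 2843 and 1627 to 4957 CPM), macrophages (156 to 260 and 228 to 267 CPM) and red cells (29.9 to 44.5 and 18.6 to 35.9 CPM). No other marker of these lists was at 0 in any library. Inhibition graft 1, lowest in the members, had the highest muscle and fibroblast sums. In whole grafts fewer cells of a type and less RNA per cell cannot be told apart, and the part of these tissues in the members' differences was not tested.

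When muscle content per graft entered the fit as a covariate, the median of the members was -0.18, and 2 members, Vhl and Ankrd37, were lower at an unadjusted p under 0.05 (background 2.02%) and 0 higher (background 1.19%), with 0 called by edgeR. Vhl then had a log2 fold change of -0.45 and Ankrd37 of -1.30, close to their values without the covariate. Of the 16 members lower at an unadjusted p under 0.05 without it, 12 moved toward 0 by over 1.5 times or changed sign. Among them Ddit4 had -0.25, Kdm3a -0.13, Hmox1 -0.08, Car9 -0.32 and Bnip3 -0.35, and Lox, the 1 higher member, had 0.09. The summed muscle level itself separated the groups, so the muscle level and the group cannot be told apart. With the melanocyte level as a covariate the median was -0.23 and 12 members were lower at an unadjusted p under 0.05 (background 4.74%).

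**Figure D4:**
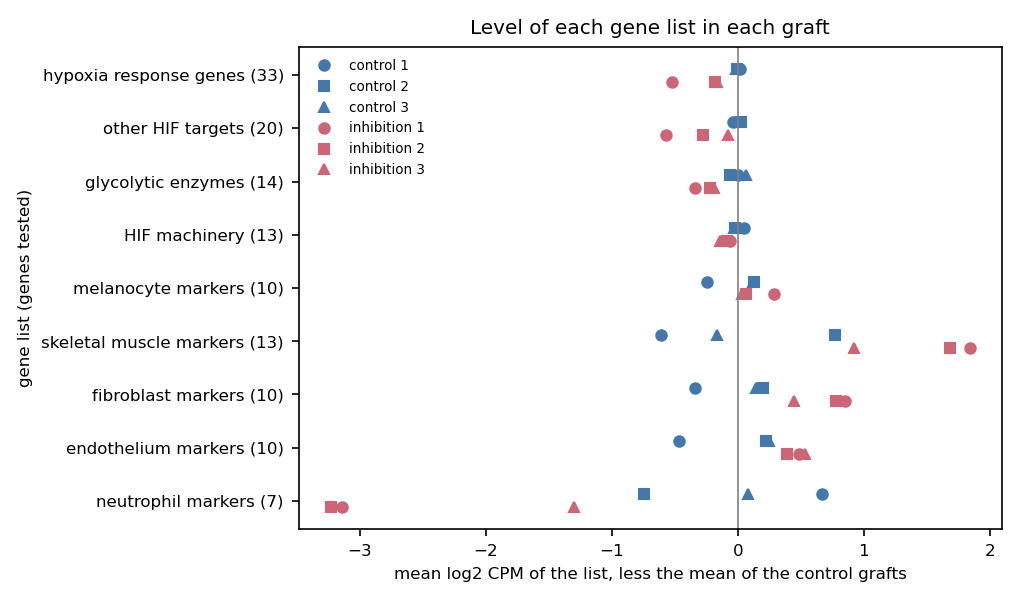
Mean log2 CPM of each gene list in each graft (x axis, less the mean of the 3 controls) for the members, other HIF genes and cell type markers (y axis, with the number of genes tested). The members lie at -0.52, -0.18 and -0.17 in the inhibition grafts, muscle and fibroblast markers lie above the controls there, and melanocyte markers overlap.

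**Figure D5:**
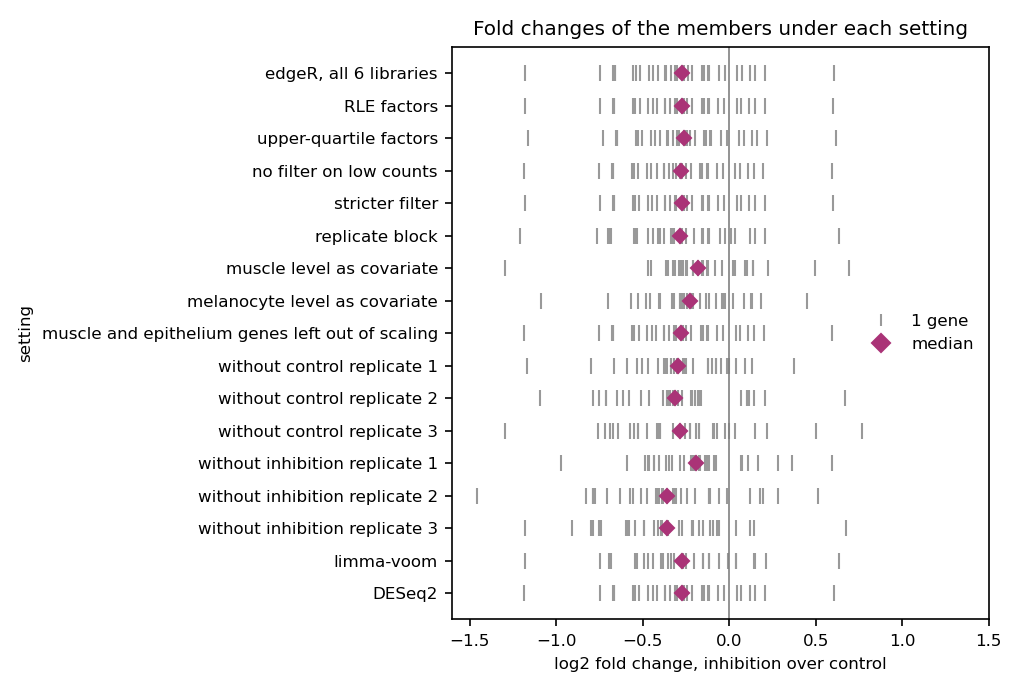
Log2 fold changes (x axis) of the members (grey ticks, 1 per gene) and their median (diamonds) under each setting of the fit (y axis). The median stays negative in every setting shown, from -0.36 without inhibition graft 3 to -0.18 with the muscle covariate.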

How the data were processed

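RNA of 6 whole tongue grafts was sequenced, 3 control and 3 inhibition. The authors deposited raw read counts per Ensembl gene, unnormalized whole numbers; HISAT2 2.0 and mm10 are named per the submitters' processing notes, and the counting program, annotation and strand setting are not given in the sources used here. Of 55487 IDs 55141 had a symbol, and the other 346 held 0.0575% of counts; 0 columns were left unused. Columns, which named the treated group by denervation, were assigned to samples by group and replicate number. Positions and exon lengths come from GENCODE M21 on GRCm38 (mm10).

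Genes were kept with filterByExpr (count minimum 10, total minimum 15), which left 15666, scaled by TMM and tested with edgeR 4.0.16 (quasi-likelihood, robust, Benjamini-Hochberg over all tested genes, R 4.3.3); SE is the absolute log2 fold change over the square root of F. The alternatives used DESeq2 1.42.0, limma 3.58.1, other scalings and filters, a covariate, a block and leaving out each library. Ratios within a library used a pseudocount of 0.5 and exact permutation tests. The fit was tested on simulated counts, with 100 genes changed 4-fold and 100 changed 2-fold. At an adjusted p under 0.05 it called 90% and 65% of them, and 14 of 15240 unchanged genes. Smaller folds were not simulated.

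The members and lists were chosen with earlier results of these data known. Every member is named; values per library are given at an unadjusted p under 0.05, for the HIF system, and for the member of smallest p in a role without one; other lists give up to 4 genes of smallest p. Ero1a, named Ero1l in the annotation, and Aldoa, with 2 IDs, were matched by RefSeq synonym and position.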

Additional observations from a re-analysis of the deposited data

How the results depend on the processing

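The median log2 fold change of the members was negative under all 16 alternatives run for it, between -0.36 and -0.18. Members lower at an adjusted p under 0.05 numbered 0 in the reported fit (background 0.00638%) and 8 in DESeq2 (background 1.17%). Without the filter on low counts they numbered 13 (background 1.52%), with 1 higher (background 2.59%). Leaving out each library gave 0 to 1, the 1 being Ak4 without inhibition replicate 3 (background 0.296%). Members lower at an unadjusted p under 0.05 numbered 16 (background 7.00%), and 2 with the muscle covariate (background 2.02%), where 0 were higher (background 1.19%). Leaving out each library gave 11 to 17 lower (background 4.04% to 8.55%) and 0 to 1 higher (background 4.75% to 10.2%). The 1 higher was Lox, which was lost without inhibition replicate 1 and without inhibition replicate 2. The cause of these shifts was not tested.

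Outside the leave-one-out fits, 324 of 330 member fold changes kept their sign. The exceptions came with the muscle covariate: Hif1a 0.024, Epas1 0.22, Plod1 0.032, Loxl2 -0.31, Bhlhe40 0.13 and Zfp395 0.10, against a reported sign opposite to each. With 1 library left out, 190 of 198 kept it; the fold change ranged from -0.36 to 0.28 in Egln3, from -0.096 to 0.499 in Ndufa4l2, from -0.11 to 0.14 in Loxl2 and from -0.13 to 0.10 in Mxi1. The 21 members negative in every setting included Vhl, between -0.51 and -0.41.

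Whether the replicate numbers pair the grafts is not settled. Deviations of same-numbered control and inhibition libraries from their group means correlated at -0.18, 0.33 and 0.09 across genes. Differently numbered libraries gave -0.39 to 0.30. Deviations from a mean of 3 libraries depend on one another, so these values cannot decide it. With the replicate block the median was -0.28, 0 members were called and 17 were lower at an unadjusted p under 0.05 (background 6.03%); the ratio differences were unchanged by construction. Each ratio difference kept its direction with a pseudocount of 5, with none, and without any 1 library, but Egln3 to Egln1 moved from 0.33 to 0.061 without inhibition replicate 3 and 0.18 without control replicate 1, Bnip3 to Bnip3l from -0.15 to -0.034 without inhibition replicate 1 and -0.24 without inhibition replicate 3, and Epas1 to Hif1a from 0.06 to 0.013 without control replicate 2 and 0.094 without control replicate 1. Depth limited Stc2, at 1 to 10 counts per library, and left Ankrd37 at 14 to 61 counts.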
